A study of Homo sapiens with 2 samples.

Results

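Sialyl and fucosyl capping enzymes is the name used here for a set of sialyltransferases and fucosyltransferases, enzymes that add sialic acid or fucose. FUT8, a member, adds fucose at the inner end of N-glycans and does not finish a chain. The set described here holds 10 genes named by symbol, ST3GAL1, ST3GAL2, ST3GAL3, ST3GAL4, ST3GAL6, ST6GAL1, FUT8, FUT11, FUT4 and FUT10, out of 49627 genes listed in the files. The rule is this list of symbols, which was drawn up with earlier results of these data known. RNA-seq was carried out on total RNA of MDA-MB-231 cells, a human triple-negative breast cancer line. There was 1 library of cells with stable knockdown of RBMS1, an RNA-binding protein, and 1 library of control cells. Per the study's methods, both kinds of cells were infected with lentivirus and selected with puromycin. The depleted cells carried an shRNA in the pLKO.1 plasmid and the control cells the plasmid without one. Both were grown with 10% fetal bovine serum in L15 medium without added carbon dioxide. The study sequenced RNA to learn how RBMS1 regulates glycosylation of the immune checkpoint protein PD-L1. With 1 library and 1 knockdown line per group there was no replicate check and no test, so every difference below is between these libraries. Differences between the cultures and the effect of RBMS1 depletion cannot be told apart, nor can fewer cells that express a gene and less RNA per cell.

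Levels are given as FPKM, fragments per kilobase of transcript and scaled to the size of the library, which can be compared between genes because it is per length. The intervals printed with them are those that Cufflinks, the program that assembled and quantified the transcripts, gives for its own uncertainty within 1 library, summed over all listed transcripts of the gene. A 2-fold difference means a log2 ratio of FPKM + 1, knockdown over control, of at least 1 or at most -1 in a gene with a mean of at least 1 FPKM. RBMS1 itself was at 3.76 FPKM after knockdown and 24.1 in control cells, so 15.6% of the control level was left. The markers checked went with the cell line, since VIM, CD44 and EGFR were between 26.1 and 496 FPKM after knockdown and between 33.0 and 563 in control cells. All 3 had intervals apart, with the lower value after knockdown, as had EPCAM, and the part of this in the results below was not tested. ESR1, PGR and CDH1, which luminal cells express, were at or below 0.0996 FPKM in both, while the luminal markers GATA3, EPCAM and ERBB2 ranged from 1.56 to 7.50 FPKM. CD3E, which defines T cells, was listed at 0, and the leukocyte markers CD3E, PTPRC and CD14 together summed to 0.898 and 0.985 FPKM. At the median depth of coverage per FPKM, 12.3-fold and 11.3-fold, a transcript at 1 FPKM was covered about equally in both libraries.

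Sialyltransferases take sialic acid from CMP-sialic acid and place it on a terminal galactose or N-acetylgalactosamine, which closes the chain and gives it a negative charge. The ST3GAL enzymes make the alpha-2,3 linkage and ST6GAL1 the alpha-2,6 linkage, and they need the galactose that B4GALT1 and related enzymes add first. Fucosyltransferases use GDP-fucose. FUT8 adds core fucose to the innermost N-acetylglucosamine of N-glycans, and FUT4 adds fucose to N-acetylglucosamine near the chain end, as in the Lewis X structure. FUT10 and FUT11 were named for their sequence kinship with the alpha-1,3-fucosyltransferases.

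Of the 10 capping enzymes, 8 had a mean of at least 1 FPKM. In this group 1 gene, FUT11, was at least 2-fold lower in the knockdown library, against 2.8% of all 11186 genes that passed the same filter. This count rests on a value listed at 0, and FUT11 passed the filter through its control value of 5.94 FPKM alone. As described with the gene, some of its transcripts carried a mark of read support in both libraries, and nothing is read from the count. None was at least 2-fold higher, against 2.96% of those genes. The summed intervals of the libraries were apart in 1 of the 8 genes, again FUT11 and with the lower value in RBMS1-depleted cells, where 11.5% of all genes had intervals apart in that direction. No capping enzyme had intervals apart in the other direction, against 13.3% of all genes. The 7 capping enzymes with a mean of at least 1 FPKM that were above 0 in both libraries had log2 ratios from -0.45 to 0.66, 4 below 0 and 3 above. Their median log2 ratio was -0.0038, beside 0.02 over all genes, and with FUT11 it was -0.06. The value of -0.0038 is that of FUT10. This gene was counted by unlike assembled transcripts, and its log2 ratio over the coding sequence was -0.86. For comparison, B4GALT1, which adds the galactose that sialic acid caps, was at 9.70 FPKM after knockdown against 21.4 in control cells, and its log2 ratio was -1.07. That ratio was -1.89 with reference transcripts alone and -0.85 with a pseudocount of 5 FPKM, which is within 2-fold.

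**Figure D1:**
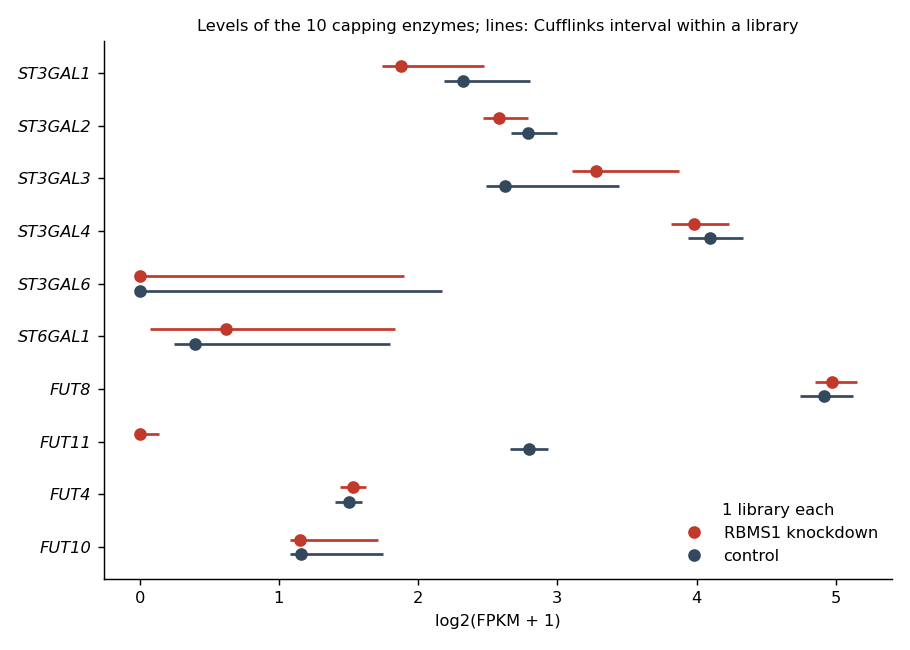
Level of each capping enzyme as log2(FPKM + 1) on the horizontal axis, with 1 point per library (red, RBMS1 knockdown; dark grey, control) and lines for the summed Cufflinks interval within that library. FUT8 lies highest in both libraries, ST3GAL6 is listed at 0 in both, and FUT11 is the gene whose lines do not overlap.

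FUT8 and then ST3GAL4 led in level in both libraries, and the interval of FUT8 was apart from that of every other capping enzyme. After knockdown ST3GAL3, ST3GAL2 and ST3GAL1 followed at 8.70, 4.99 and 2.67 FPKM. There the intervals of ST3GAL4 and ST3GAL3 overlapped, as did those of ST3GAL2 and ST3GAL1. In control cells FUT11, ST3GAL2 and ST3GAL3 lay between 5.16 and 5.94 FPKM and ST3GAL1 at 3.99, and the intervals of these 4 genes overlapped. FUT4 and FUT10 lay between 1.22 and 1.90 FPKM in both libraries, with overlapping intervals. ST6GAL1 was below 1 FPKM and ST3GAL6 was listed at 0.

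ST3GAL3 caps galactose on N-acetylglucosamine, with a preference for type 1 chains, and had the highest log2 ratio among the capping enzymes. It lies on chr1:43705824-43931165 (GRCh38, plus strand). Its level was 8.70 FPKM (7.60 to 13.7) after knockdown and 5.16 FPKM (4.60 to 9.88) in control cells, and the log2 ratio was 0.66. With its dominant transcript alone it was -0.48, the opposite direction. The intervals, to which each of the 39 listed ST3GAL3 transcripts adds its own bounds, overlapped. The higher level lay in 1 transcript. Transcript ENST00000361392 was at 5.16 FPKM (4.60 to 5.71) in control cells and at 3.41 FPKM (2.92 to 3.91) in depleted cells, while ENST00000361400 was at 5.28 FPKM (4.68 to 5.89) in depleted cells and listed at 0 in control cells. In the deposited structures these transcripts differ inside the gene by 1 coding exon of 48 nt at chr1:43792102-43792149, whose length is a multiple of 3. Transcripts without this exon made up 60.8% of ST3GAL3 FPKM after knockdown, and such transcripts were listed at 0 in control cells. For each reference transcript Cufflinks marks whether reads cover its introns and inner exons in full. ENST00000361400 carried that mark of full read support in control cells too. The authors' joint table, whose FPKM are not on the scale of the transcript lists, has it at 3.01 FPKM after knockdown and 0.656 in control cells. The exon is shown because the ST3GAL3 difference turns on it. Its sequence, in GENCODE release 29 on the plus strand of GRCh38, is given from 5′ to 3′.
ST3GAL3 exon, chr1:43792102-43792149: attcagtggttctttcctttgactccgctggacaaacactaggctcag

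ST3GAL4 also acts on galactose linked to N-acetylglucosamine and takes part in making sialyl Lewis X, the ligand of selectins. It lies on chr11:126355640-126440344 (plus strand). Its level was 14.8 FPKM (13.1 to 17.8) after knockdown and 16.1 FPKM (14.3 to 19.1) in control cells, for a log2 ratio of -0.11. With reference transcripts alone it was -0.91, and with the dominant transcript alone -0.40. The transcripts behind the gene level differed at 1 splice site. In control cells ENST00000444328 was at 10.99 FPKM (9.96 to 12.03) and ENST00000227495 at 5.09 FPKM (4.35 to 5.82). In depleted cells ENST00000444328 was at 8.07 FPKM (7.19 to 8.95), a transcript assembled from the reads with the same splice site was at 6.74 FPKM (5.86 to 7.62), and ENST00000227495 was listed at 0. ENST00000227495 ends the exon shown here 12 nt earlier than ENST00000444328, and these 12 coding bases lie at chr11:126406546-126406557. The form without them made up 31.6% of ST3GAL4 FPKM in control cells and was listed at 0 in depleted cells, where ENST00000227495 still carried the mark of full read support. This exon is printed with these 12 bases in capitals to show where the splice sites part.
ST3GAL4 exon end, chr11:126406473-126406557, plus strand: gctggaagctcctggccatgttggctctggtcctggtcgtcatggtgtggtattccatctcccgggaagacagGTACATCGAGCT

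ST3GAL6 sialylates type 2 chains and lies on chr3:98732236-98821201 (plus strand). All 28 of its reference transcripts were listed at 0 in both libraries, so no fold is given. On its own scale, the authors' joint table lists 1 of them, ENST00000468553, at 0 after knockdown and 0.332 FPKM in control cells. A value of 0 and reads over the introns could stand together. The mark of full read support was set for 9 ST3GAL6 transcripts after knockdown and for 8 in control cells, and over all multi-exon reference transcripts listed at 0 it was set for 36.9% and 35.6%. The files also list single-exon assembled fragments on the plus strand inside the ST3GAL6 introns. After knockdown 8 fragments covered 31726 bases, 38.4% of the intron length, at a length-weighted mean of 1.05 FPKM. In control cells 9 fragments covered 20903 bases, 25.3%, at 1.18 FPKM. Such fragments lay in other capping enzymes too, over 36.9% and 29.2% of the introns of ST3GAL2 in depleted and control cells and over 13.8% and 26.2% of those of ST3GAL3, so the order of the libraries was not the same in each gene.

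ST6GAL1, the main enzyme for alpha-2,6 sialic acid on N-glycans, lies on chr3:186930485-187078553 (plus strand) and was low in both libraries. It was at 0.534 FPKM (0.0519 to 2.57) in depleted cells and 0.314 FPKM (0.184 to 2.47) in control cells, and did not pass the filter of 1 FPKM. In depleted cells 0.415 of this came from ENST00000442023, a short transcript of 570 nt, and ENST00000448044 with the whole coding sequence was at 0.0827 FPKM. In control cells the largest part was an assembled transcript at 0.256 FPKM. Averaged over the coding sequence, ST6GAL1 was at 0.245 FPKM in depleted and 0.285 in control cells, so the order of the libraries turned. On the FPKM scale ST6GAL1 lay below each of ST3GAL1 to ST3GAL4 in both libraries. After knockdown its interval overlapped that of ST3GAL1, which was 2.35 to 4.55 FPKM.

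ST3GAL1 and ST3GAL2 sialylate the galactose on N-acetylgalactosamine. ST3GAL1 caps core 1 O-glycans, and it had the lowest log2 ratio among the capping enzymes above 0 in both libraries. It lies on chr8:133454848-133571940 (minus strand). Its level was 2.67 FPKM (2.35 to 4.55) after knockdown, 66.7% of the control level of 3.99 FPKM (3.55 to 5.997), for a log2 ratio of -0.45, and the intervals overlapped. All of its transcripts above 0 held the whole coding sequence of 1020 nt. Reference transcript ENST00000521180 was higher in depleted cells, at 1.81 FPKM (1.62 to 1.99) against 1.23 (1.05 to 1.42), and assembled transcripts were lower, at 0.856 FPKM against 2.76. The assembled transcript of depleted cells lacked the first exons. The first 3 introns were at 1.81 FPKM in depleted and 3.99 in control cells, and the last 5 introns at 2.67 and 3.99. With reference transcripts alone the log2 ratio of ST3GAL1 was 0.33, the opposite direction.

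ST3GAL2, which acts on the same disaccharide and on glycolipids, lies on chr16:70375978-70439237 (minus strand). It was at 4.99 FPKM (4.52 to 5.93) in depleted and 5.92 FPKM (5.35 to 6.99) in control cells, for a log2 ratio of -0.21. Both of its transcripts above 0 were lower in depleted cells, ENST00000342907 at 4.12 against 4.50 FPKM and ENST00000393640 at 0.876 against 1.42. The summed FPKM of ST3GAL1 and ST3GAL2 was 7.66 in depleted and 9.92 in control cells. That of ST3GAL3 and ST3GAL4 was 23.5 and 21.2. With reference transcripts alone ST3GAL3 and ST3GAL4 were at 8.70 and 8.07 FPKM in depleted cells. In control cells they were at 5.16 and 16.1, so the order of the libraries turned for their sum. Together the 4 genes summed to 31.2 FPKM in each library. This sum counts assembled transcripts, and with reference transcripts alone the log2 ratios of ST3GAL1 and ST3GAL4 were 0.33 and -0.91. Within the sum of 31.2 FPKM ST3GAL3 made up 27.9% in depleted cells and 16.6% in control cells, and ST3GAL4 made up 47.5% and 51.6%. The ST3GAL3 share rests on a gene level with overlapping intervals, whose log2 ratio was -0.48 with the dominant transcript alone.

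FUT4 makes the Lewis X linkage and lies in a single exon on chr11:94543840-94549898 (plus strand). It was at 1.90 FPKM (1.70 to 2.09) after knockdown and 1.84 FPKM (1.64 to 2.03) in control cells, for a log2 ratio of 0.03. With 1 transcript its value did not depend on how transcripts were split. It shares 683 exonic bases with PIWIL4 on the same strand, and PIWIL4 was listed at 0 in both libraries.

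FUT8, the only enzyme known to add core fucose to N-glycans, lies on chr14:65410592-65744121 (plus strand) and was the most abundant capping enzyme. Its level was 30.5 FPKM (27.8 to 34.5) in depleted cells and 29.1 FPKM (25.8 to 33.8) in control cells, for a log2 ratio of 0.06. A form that skips coding exons was present at about the same level in both libraries. ENST00000342677, annotated as subject to nonsense-mediated decay, was at 10.4 FPKM (9.50 to 11.3) in depleted and 10.6 FPKM (9.67 to 11.4) in control cells. It carried the mark of full read support in depleted cells and not in control cells. It lacks 2 neighbouring coding exons of 247 and 177 nt. Their joint length of 424 nt leaves a remainder of 1 when divided by 3, so skipping them shifts the reading frame. The form without them made up 34.2% of FUT8 FPKM in depleted cells and 36.3% in control cells, and the forms with them were at 20.04 and 18.6 FPKM. Both exons are printed because forms with and without them stood side by side in each library.
FUT8 skipped exon 1, chr14:65721775-65722021, plus strand: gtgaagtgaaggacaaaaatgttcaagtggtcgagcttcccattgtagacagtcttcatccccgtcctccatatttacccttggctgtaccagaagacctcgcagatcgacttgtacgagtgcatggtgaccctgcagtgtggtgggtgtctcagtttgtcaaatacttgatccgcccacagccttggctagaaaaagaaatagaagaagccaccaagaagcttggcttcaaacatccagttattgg
FUT8 skipped exon 2, chr14:65724147-65724323, plus strand: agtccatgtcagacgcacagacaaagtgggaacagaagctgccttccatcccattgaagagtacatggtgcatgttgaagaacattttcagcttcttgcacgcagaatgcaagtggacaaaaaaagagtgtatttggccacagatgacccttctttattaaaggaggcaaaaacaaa

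The other FUT8 transcripts differed between the lists. ENST00000358307 was at 7.06 FPKM (6.34 to 7.78) in depleted and 3.31 FPKM (2.79 to 3.83) in control cells. ENST00000360689 was at 1.97 FPKM (1.72 to 2.23) in control cells and listed at 0 in depleted cells, with full read support in both. Assembled transcripts made up the rest, 1 at 12.98 FPKM in depleted cells and 2 at 7.43 and 5.84 FPKM in control cells. The start of FUT8 also differed between the libraries. Transcripts used 3 first introns, all joining the same second exon. The first intron that begins 33717 bases upstream of the annotated FUT8 start was at 7.43 FPKM in control cells and listed at 0 in depleted cells. The one beginning at position 65411994 was at 12.5 FPKM in control and 10.4 in depleted cells. The one beginning at position 65413215 was at 9.15 FPKM in control and 20.04 in depleted cells. An intron that skips the exon with the annotated start codon was at 3.31 FPKM in control and 7.06 FPKM in depleted cells, all from ENST00000358307, which had full read support in control cells and not in depleted cells. These are estimates of transcript assembly in 1 library each, and their error between cultures is unknown.

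FUT11 lies on chr10:73772291-73780251 (plus strand) and was the only capping enzyme listed at 0 in 1 library and above 0 in the other. In control cells it was at 5.94 FPKM (5.32 to 6.65), all from ENST00000372841, at 67.3-fold coverage. In depleted cells all 4 of its reference transcripts were listed at 0, with a summed upper bound of 0.103 FPKM, and no assembled transcript shared an intron with it. No fold is given against a value listed at 0. Of the 4 transcripts 3 carried the mark of full read support in depleted cells, as did 3 of 4 in control cells. In the knockdown library this mark was set for 36.9% of multi-exon reference transcripts at 0 and for 67.6% of those above 0. Whether reads of FUT11 were present in depleted cells thus cannot be told from it. Of the 313 genes at least 2-fold lower, 142 were listed at 0 in the knockdown library. Of the 91 genes listed at 0 there that have a multi-exon reference transcript at 0 and a mean of at least 1 FPKM, 83 had a transcript with full read support. FUT11 was thus 1 of 83 such genes. In the authors' joint table, on its own scale, another FUT11 transcript, ENST00000394790, is at 1.06 FPKM after knockdown and 0.228 in control cells. That table holds only transcripts under a limit on p, so this value does not give the level of the gene.

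The neighbours of FUT11 were somewhat higher in depleted cells. SEC24C, which ends just upstream on the same strand, was at 18.2 FPKM in depleted and 14.8 in control cells, and CHCHD1 downstream was at 29.9 and 23.6. AC022400.8, a single-exon transcript annotated on the opposite strand, shares 572 exonic bases with FUT11 and 2293 with SEC24C. It was at 11.02 FPKM in depleted and 6.47 in control cells. No source used here says whether the libraries keep the strand, so reads of overlapping genes on opposite strands cannot be told apart.

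FUT10 lies on chr8:33370824-33473422 (minus strand). Its gene level was nearly equal, 1.22 FPKM (1.11 to 2.28) in depleted and 1.23 FPKM (1.12 to 2.36) in control cells. All 11 reference transcripts were listed at 0 in both libraries, 6 of them with full read support in depleted and 4 in control cells, and the level came from 1 assembled transcript per library. These transcripts were not alike. That of depleted cells had 2 exons and held 225 of the 1437 coding bases of FUT10, and 9985 of its 12029 bases lay past the annotated gene. That of control cells had 5 exons and held 1356 coding bases, with 10257 of its 13470 bases past the gene. Averaged over the coding sequence, FUT10 was at 0.191 FPKM in depleted and 1.16 FPKM in control cells, for a log2 ratio of -0.86. In the joint table, on its own scale, the coding transcript ENST00000518672 is at 0.859 FPKM after knockdown and 0.117 in control cells. That is higher after knockdown, but a transcript under a limit on p does not give the level of the gene.

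Other transferases of both families and genes that supply or remove the capping sugars were described from 5 lists with 40 genes, of which 22 had a mean of at least 1 FPKM. None was at least 2-fold lower or higher, where 2.8% and 2.96% of all genes were. With reference transcripts alone POFUT1 and NANP were at least 2-fold lower, with log2 ratios of -1.55 and -1.54, where 4.87% of all genes were. Intervals were apart for 2 with the lower value in depleted cells and for 3 with the higher value, beside 11.5% and 13.3% of all genes, so these counts were near those shares. The median log2 ratio of the 22 genes was 0.04, beside 0.02 over all genes.

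CMP-sialic acid is made by GNE, NANS, NANP and CMAS and carried into the Golgi by SLC35A1, and all 5 genes passed the filter. GNE, which starts the pathway, was at 7.54 FPKM (7.06 to 8.14) in depleted and 5.96 FPKM (5.54 to 6.50) in control cells, with intervals apart. CMAS, which activates sialic acid in the nucleus, was at 13.2 FPKM (12.2 to 14.7) in depleted and 17.4 FPKM (16.1 to 19.1) in control cells, also apart. The first and the activating step thus differed in opposite directions, with log2 ratios of 0.30 and -0.37. NANS was at 33.5 and 32.7 FPKM, NANP at 6.39 and 5.83, and SLC35A1 at 3.25 and 3.01, each with overlapping intervals. The log2 ratio of NANP was 0.11, and it was -1.54 with reference transcripts alone, the opposite direction.

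GDP-fucose comes from GDP-mannose through GMDS and TSTA3 or from free fucose through FUK and FPGT, and SLC35C1 carries it into the Golgi. All 6 genes of this list, with SLC35C2, passed the filter and had overlapping intervals. GMDS was at 19.7 FPKM (15.9 to 24.5) in depleted and 14.4 FPKM (12.5 to 17.4) in control cells, and TSTA3 at 17.9 and 21.1. The log2 ratio of GMDS was 0.43, and it was -0.43 with its dominant transcript alone and -0.33 with protein-coding reference transcripts alone. That of TSTA3 was -0.22, and 0.06 with its dominant transcript alone. FUK was at 0.958 and 1.46 FPKM and FPGT at 1.17 and 1.22, so the salvage genes lay far below the genes of synthesis from GDP-mannose in both libraries. SLC35C1 was at 4.31 and 5.01 FPKM and SLC35C2 at 12.8 and 13.0. The log2 ratio of SLC35C2 was -0.02, and 0.91 with its dominant transcript alone.

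Among the 14 other sialyltransferases 5 had a mean of at least 1 FPKM. ST6GALNAC2, which adds alpha-2,6 sialic acid to O-glycans, had the lowest log2 ratio, at 24.7 FPKM (23.3 to 26.9) in depleted and 37.1 FPKM (35.2 to 40.0) in control cells, for a log2 ratio of -0.57. Averaged over the coding sequence its log2 ratio was 0.43, the opposite direction. ST3GAL5, which makes the ganglioside GM3, had the highest, at 3.38 FPKM (2.52 to 5.52) against 1.79 FPKM (1.19 to 3.81), a log2 ratio of 0.65 that was -0.27 with its dominant transcript alone. Of the 9 other fucosyltransferases 2 passed. POFUT1, which puts fucose on EGF repeats of proteins such as Notch, was at 33.7 FPKM (30.7 to 37.0) in depleted and 21.8 FPKM (20.7 to 23.3) in control cells, for a log2 ratio of 0.60. With reference transcripts alone its log2 ratio was -1.55. POFUT2 was at 7.30 and 7.35 FPKM. Of the 6 genes that remove sialic acid or fucose 4 passed, from FUCA1 at 12.6 against 14.6 FPKM, a log2 ratio of -0.21, to NEU3 at 3.47 against 2.68 FPKM, a log2 ratio of 0.28. The intervals of both overlapped, and FUCA1 was at -0.65 with reference transcripts alone. FUCA2, a fucosidase, was the gene of this list with intervals apart, at 26.5 FPKM (24.2 to 29.01) in depleted and 21.7 FPKM (19.9 to 23.7) in control cells.

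**Figure D2:**
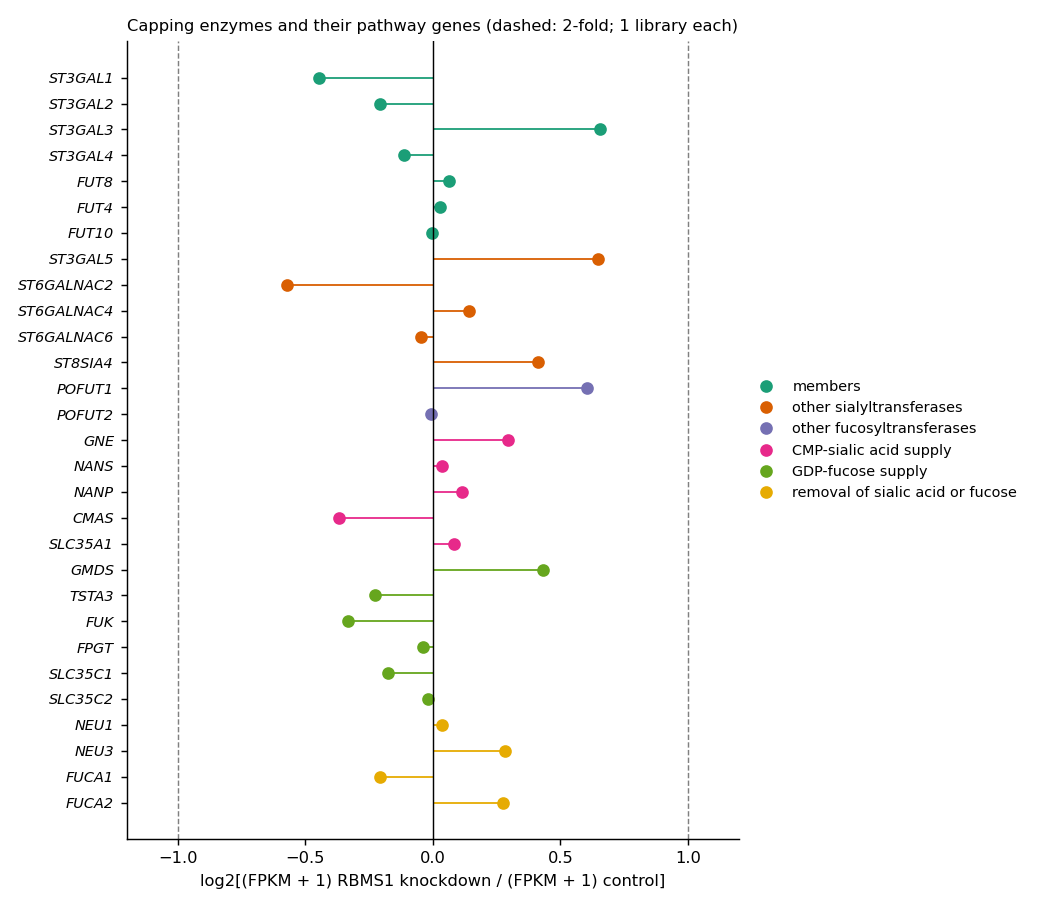
Log2 ratio of FPKM + 1, RBMS1 knockdown over control, for the 7 capping enzymes above 0 in both libraries with a mean of at least 1 FPKM and for the 22 pathway genes that passed, coloured by list. All points lie between the dashed 2-fold lines, from -0.57 for ST6GALNAC2 to 0.66 for ST3GAL3.

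RBMS proteins bind AU-rich RNA, so the pentamer ATATA, written as DNA, was counted in the 3′ untranslated region of the main coding transcript of each capping enzyme, on the sense strand and with overlapping matches. FUT4 held 10 copies in 4172 nt, and 31.5% of the 831 untranslated regions of like length held at least as many. ST3GAL1 held 2 copies in 4911 nt, where 90.1% of 646 regions of like length held at least as many. ST3GAL3 and ST3GAL4 held none in 938 and 591 nt, and 56.6% and 42.5% of regions of like length held at least 1. FUT8 and FUT11 held 1 each in 732 and 534 nt, where 48.7% and 40.6% of regions of like length held at least 1. ST3GAL6 held 3 copies, and 54.2% of regions of like length held at least as many. ST3GAL2, ST6GAL1 and FUT10 held 1 each, where 77.1% to 88.5% of regions of like length held at least 1. B4GALT1 held 2 copies in 2817 nt, and 77.9% of 1259 regions of like length held at least as many. A match describes these letters only and no site of binding.

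For some capping enzymes the direction turned with the processing. ST3GAL2, ST3GAL4 and FUT4 kept their sign under all 10 other ways of processing, with ST3GAL4 reaching -0.91 with reference transcripts alone. ST3GAL3 kept its sign under 9 of 10 and was at -0.48 when only its dominant transcript was used, which is ENST00000361392. ST3GAL1 kept its sign under 7 of 10, and FUT8 under 9 of 10 with -0.02 for its dominant transcript alone. ST6GAL1 and FUT10 each kept their sign under 6 of 7. ST6GAL1 was at -0.05 over the coding sequence, and FUT10 at 0.0056 when scaled to the upper quartile.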

How the data were processed

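RNA-seq was analysed for 1 library of RBMS1-depleted and 1 of control MDA-MB-231 cells, grouped by the labels. The authors deposited, per library, a transcript list with FPKM, interval, coverage and a mark of full read support as text attributes, and a joint table of 7236 transcripts with FPKM, fold change, p-value and q-value, limited by p. Its fold changes, p-values and q-values were not used. The submitters' processing notes name Bowtie2 2.0.6, TopHat2 2.0.9, Cufflinks 2.1.1 and Cuffdiff 2.1.1. Build and annotation are not given in the sources used here. In each library 98.1% of the matched reference transcripts started where GENCODE release 29 (GRCh38) places them.

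The members and lists were chosen with earlier results of these data known. Gene FPKM was the sum over reference transcripts and assembled transcripts sharing at least 1 intron on the same strand. Log2 ratios used a pseudocount of 1 FPKM and a filter at a mean of 1 FPKM. Cufflinks can list a transcript at 0 when an estimate fails, so no fold is given against 0. The files hold no counts, so the depth in reads is unknown. Named were all capping enzymes with their transcripts above 0.5 FPKM, RBMS1, B4GALT1, each list's largest decrease and increase, and the donor supply genes with a mean of at least 1 FPKM. One marker gene is not reported here. FUCA2, neighbours of FUT11 and overlapping genes were named after their values were seen. The main 3′ untranslated region was that of the protein-coding transcript with the highest summed FPKM among those with such a region annotated, and of the longest where all were at 0, and like length meant 80% to 125%. Alternatives changed the pseudocount, scaling, filter and transcripts counted. The gene sums were tested on simulated data. Python 3.11.15, pandas 2.3.3 and numpy 2.4.6 were used.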

Additional observations from a re-analysis of the deposited data

Results flagged for a closer look

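The joint table of the authors holds 10 transcripts of 7 capping enzymes, and 6 of them were higher in the knockdown library. The share of all 7236 transcripts of that table that were higher was not computed, so nothing is read from this count. This table was not used for the gene levels because it holds only transcripts under a limit on p. Its FPKM were on a scale about 1.72 to 1.76 times that of the transcript lists. Single transcripts departed from this. After knockdown ENST00000361400 was at 3.01 in it and 5.28 in the transcript list, and ENST00000448044 at 0.203 and 0.0827. The 6 transcripts higher after knockdown are singled out because the signal in this table was above that of the control library. FUT11 transcript ENST00000394790 was at 1.06 FPKM after knockdown and 0.228 in control cells, although FUT11 was listed at 0 in the knockdown library's own transcript list. FUT10 transcript ENST00000518672, a coding transcript listed at 0 in both transcript lists, was at 0.859 and 0.117 FPKM. For both genes the transcript in the joint table was higher after knockdown, while the coding level in the transcript lists was lower. A transcript that passed a limit on p does not give the level of its gene, so these are unlike measures. ST3GAL3 transcript ENST00000361400, which lacks the 48 nt exon, was at 3.01 and 0.656 FPKM, so it was above 0 in control cells here. ST3GAL3 transcript ENST00000353126 was at 0.789 and 0.0801 FPKM, and ST3GAL3 transcript ENST00000335430 and ST3GAL3 transcript ENST00000347631 were at 0.404 and 0.756 FPKM after knockdown and listed at 0 in control cells. No test of these differences was run here, and the p-values of the authors' table were not used.

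The other 4 transcripts were lower in the knockdown library. ST3GAL1 transcript ENST00000399640 was at 0.503 against 1.28 FPKM, ST3GAL4 transcript ENST00000526727 at 0.253 against 1.65, ST6GAL1 transcript ENST00000448044 at 0.203 against 0.533, and ST3GAL6 transcript ENST00000468553 was listed at 0 against 0.332.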

How the results depend on the processing

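No paired analysis was possible because each group has 1 library, and for the same reason no replicate could be left out. The median log2 ratio of the capping enzymes lay between -0.11 and 0.03 under all alternatives. The count of capping enzymes at least 2-fold higher was 0 under all alternatives. The count at least 2-fold lower was 1 except with a filter at a mean of 5 FPKM and, chosen after seeing the data, with genes above 0 in both libraries, where it was 0, since FUT11 does not enter these sets. The share of all genes at least 2-fold lower ran from 0.858% without a filter to 4.89% with TPM, and that of genes at least 2-fold higher from 0.915% without a filter to 5.31% with reference transcripts alone. Of 252 log2 ratios of named genes under the alternatives, 25 moved by more than the within-library uncertainty of the gene's own log2 ratio and 227 did not. POFUT1 and NANP were at -1.55 and -1.54 with reference transcripts alone.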
